A study of Mus musculus with 6 samples.

Results

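The transcripts of 9 chemokine receptor genes, Ccr1, Ccr2, Ccr6, Ccr7, Ccrl2, Cxcr2, Cxcr3, Cxcr5 and Cx3cr1, were followed in donor hematopoietic stem and progenitor cells (HSPCs) at 6 h after bone marrow transplantation (BMT). The members were taken as a named list of genes by Ensembl identifier, and all 9 were among the 24965 genes of the table. Chemokine receptors are cell surface proteins that couple to inhibitory G proteins and steer leukocytes along gradients of secreted chemokines. Receptors of the inflammatory type, such as Ccr1, Ccr2 and Cxcr2, draw myeloid cells to injured or infected tissue, while Ccr7 and Cxcr5 position lymphocytes and dendritic cells in lymphoid organs. Ccrl2 is atypical, since it presents the attractant chemerin on the cell surface without conventional signaling. In bone marrow, Cxcr4 holds stem cells and neutrophils in place, and Cxcr2 on neutrophils favours their release into blood.

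Libraries came from 3 WT and 3 Hemgn-/- replicates, each of donor cells (CD45.2+) recovered from irradiated CD45.1+ recipients (9 Gy in a split dose) that carried intact Hemgn. The study's methods describe adult C57BL/6 mice of both sexes, a whole-body Hemgn mutation made with zinc finger nucleases and WT littermates as controls, so the mutation was present in every donor cell and not in HSPCs alone. Hemgn encodes a nuclear protein of hematopoietic cells. The labels put the sort at lineage-negative Sca-1-positive cells and the methods add c-Kit. The replicates are called biological, but nothing says which recipients were pooled or paired.

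Depth, recovered from the steps between low values, ran from 23667966 to 28897251 fragments per library. Hemgn itself was at 5.64, 2.96 and 4.68 FPKM (fragments scaled to gene length and library size) in WT and at 0.755, 0.913 and 1.60 FPKM in Hemgn-/- libraries (log2 fold change -1.37, limma with Benjamini-Hochberg adjusted p = 0.0114). The sorted population was checked against its markers. Kit, the gene of c-Kit, was at 5.50 to 7.24 FPKM over the 6 libraries and Ly6a, the gene of Sca-1, at 8.27 to 17.3 FPKM, whereas the neutrophil granule gene Ngp was at 26488 to 46692 FPKM and the T cell receptor gene Trac at 76.5 to 89.2 FPKM. Transcripts of cells committed to a lineage were thus abundant beside those of HSPCs. In such bulk samples fewer cells of a type and less RNA per cell cannot be told apart.

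The 9 receptors covered a wide range of levels. In WT libraries Cxcr2 (278 ± 2.31 FPKM, SD, n = 3) and Ccr1 (273 ± 10.8 FPKM) were highest, with overlapping ranges, and both lay above 99% of the 13739 genes tested. Ccr7 and Ccrl2 followed at 69.2 ± 4.25 and 69.1 ± 0.545 FPKM, again with overlapping ranges. Ccr2 (15.7 FPKM), Cxcr5 (11.3 FPKM) and Cxcr3 (8.59 FPKM) came next and did not overlap with each other, while Cxcr3, Cx3cr1 (6.50 FPKM) and Ccr6 (3.99 FPKM) overlapped each with its neighbour, and the highest Cx3cr1 value also reached the range of Cxcr5. In Hemgn-/- libraries none of the first 6 shared a range with another receptor and Ccrl2 stood above Ccr7, while Cx3cr1 at the lower end overlapped with both Ccr6 and Cxcr3. Cxcr2 and Ccr1 together made up 74.4% to 75.8% of the summed FPKM of the 9 genes in WT and 69.5% to 72.5% in Hemgn-/- libraries. That sum was 722 to 748 FPKM in WT and 1051 to 1061 FPKM in Hemgn-/- libraries, with no overlap.

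**Figure D1:**
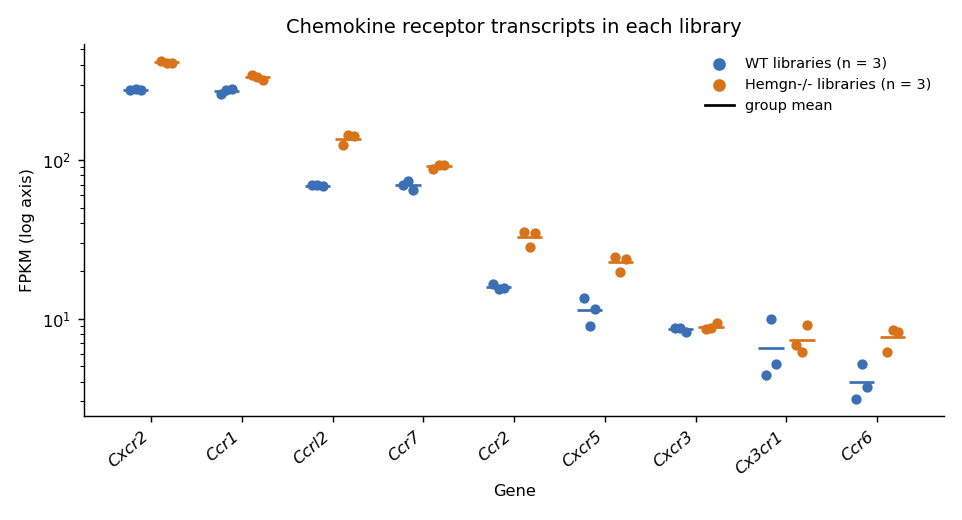
FPKM of the 9 chemokine receptor genes in each library on a log axis, with WT libraries in blue, Hemgn-/- libraries in orange and horizontal lines for group means (n = 3 each). The orange points lie above the blue ones for 7 genes, and the points mix for Cxcr3 and Cx3cr1.

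The question put to these values was whether loss of Hemgn changed receptor transcripts in homed donor cells. Values were compared as log2(FPKM + 1) with limma across every gene that exceeded 1 FPKM in 1 library or more. Fold changes are Hemgn-/- minus WT on that scale, so those of weakly expressed genes come out too small. All 9 receptors passed this filter in every library, the lowest value being 3.10 FPKM. At the 0.05 level after adjustment, 7 of the 9 rose and 0 fell, where 4.37% of all genes rose, 2.09% fell and 6.46% did either. None of the 9 fell at an unadjusted p under 0.05 in limma, and limma's voom on recovered fragments also gave 0 that fell. The share of all genes at an unadjusted p under 0.05 alone was not counted, here or for the lists below. Counts at that level therefore have no background to be read against. The study's thresholds, a 1.5-fold change and an unadjusted p below 0.05, were also applied to the limma fit. By them 4 of the 9 rose and 0 fell (Ccr2, Ccrl2, Cxcr5 and Ccr6), against 4.10% and 2.74% of all genes. Those shares are 563 genes higher and 376 lower, whereas the study, with its own test, reported more genes lower than higher. The groups did not overlap for 7 receptors, all higher in Hemgn-/-, which held for 19.2% of all genes, with 8.18% lower. The median log2 fold change of the 9 was 0.58 and that of all genes tested 0.087. The list was drawn up with earlier results of these libraries known. On the same libraries, the study associated its upregulated genes with a Reactome pathway set of chemokines and their receptors. The direction of the list is therefore not independent evidence.

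**Figure D2:**
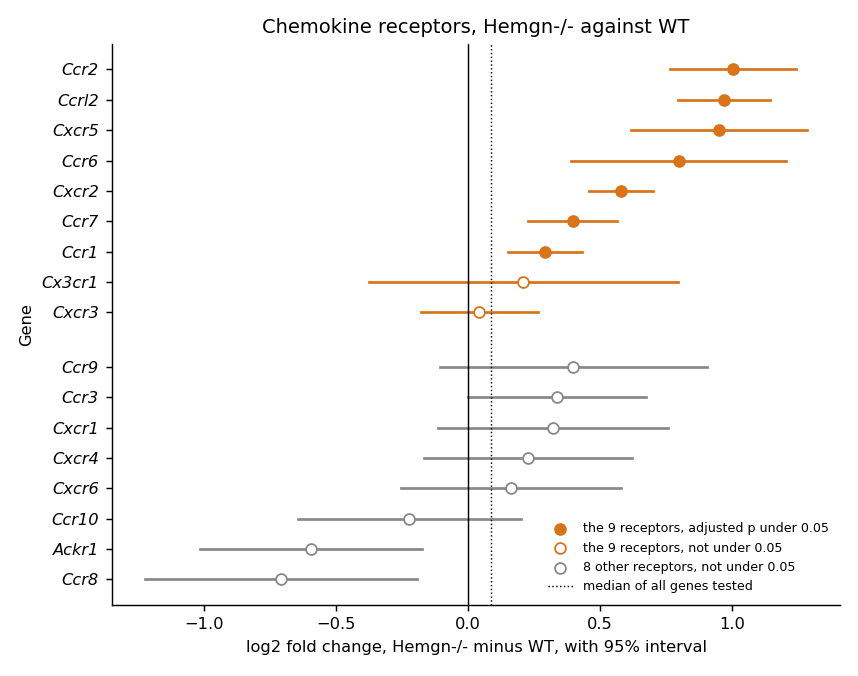
Log2 fold change (Hemgn-/- minus WT, log2(FPKM + 1) scale) with its 95% interval for the 9 receptors in orange and the 8 other chemokine receptors that were tested and did not pass in grey, filled where the adjusted p was under 0.05. Ccr2, Ccrl2 and Cxcr5 lie near 1, and Cxcr3 and Cx3cr1 cross 0.

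Among the receptors of inflammatory myeloid cells, Ccr2 had the largest log2 fold change. Ccr2 (ENSMUSG00000049103), the receptor for Ccl2 that brings monocytes out of the marrow, was at 16.4, 15.3 and 15.5 FPKM in WT replicates 1, 2 and 3 and at 35.2, 28.2 and 34.6 FPKM in Hemgn-/- replicates 1, 2 and 3. Every Hemgn-/- library was above every WT library, and the lowest of them was Hemgn-/- replicate 2. The log2 fold change was 1.00 (standard error 0.10, limma with Benjamini-Hochberg adjusted p = 0.00140), and group means stood 2.08-fold apart. Recovered fragments on Ccr2 numbered 2624 to 2904 in WT and 4983 to 6768 in Hemgn-/- libraries.

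Ccr1 (ENSMUSG00000025804), a receptor for Ccl3 and Ccl5 on neutrophils and monocytes, changed least among those that rose. It was at 261, 277 and 281 FPKM in WT and at 346, 336 and 321 FPKM in Hemgn-/- libraries. The groups did not overlap. The log2 fold change was 0.29 (standard error 0.061, limma with Benjamini-Hochberg adjusted p = 0.0273), and it was 0.19 with an adjusted p of 0.151 from limma after median-ratio scaling. The call was also lost with 5 of the 6 libraries left out in turn, all but WT replicate 2, where the adjusted p from limma ran from 0.0585 to 0.104.

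Ccrl2 (ENSMUSG00000043953) had the smallest adjusted p of the 9. Its WT values of 69.2, 69.5 and 68.5 FPKM were close to each other, and its Hemgn-/- values were 124, 144 and 141 FPKM. Each Hemgn-/- library was far above the WT libraries, with a log2 fold change of 0.97 (standard error 0.076, limma with Benjamini-Hochberg adjusted p = 0.000276). Within each library, the ratio of Ccrl2 to Ccr7, which does not depend on scaling between libraries, was 0.947 to 1.05 in WT and 1.42 to 1.55 in Hemgn-/- libraries.

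Cxcr2 (ENSMUSG00000026180), the receptor for Cxcl1 and Cxcl2 that drives neutrophil recruitment, was the most abundant of the 9. Its values were 277, 280 and 275 FPKM in WT and 423, 412 and 410 FPKM in Hemgn-/- libraries. The libraries of a group lay close together and the groups far apart. The log2 fold change was 0.58 (standard error 0.053, limma with Benjamini-Hochberg adjusted p = 0.000663), which is just below 1.5-fold on the log2(FPKM + 1) scale. The ratio of Cxcr2 to Ccr1 within a library was 0.980 to 1.06 in WT and 1.22 to 1.28 in Hemgn-/- libraries. Against Cxcr4, its counterpart in marrow retention, the ratio was 10.8 to 19.0 in WT and 16.7 to 19.6 in Hemgn-/- libraries, and these ranges overlapped.

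Of the receptors that lymphocytes use, Cxcr5, Ccr6 and Ccr7 rose. Cxcr5 (ENSMUSG00000047880), the Cxcl13 receptor that leads B cells into follicles, was at 13.4, 8.97 and 11.6 FPKM in WT and at 24.3, 19.8 and 23.8 FPKM in Hemgn-/- libraries. The groups were clearly apart, with replicate 2 lowest in both. The log2 fold change was 0.95 (standard error 0.15, limma with Benjamini-Hochberg adjusted p = 0.00740). Of its exon bases, 3.30% also lie in exons of Bcl9l on the opposite strand, a gene at no more than 2.53 FPKM.

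Ccr7 (ENSMUSG00000037944), the receptor that guides lymphocytes and mature dendritic cells to lymph nodes, was at 69.3, 73.4 and 64.9 FPKM in WT and at 87.3, 93.0 and 93.8 FPKM in Hemgn-/- libraries. All Hemgn-/- values were higher. The log2 fold change of 0.40 (standard error 0.074, limma with Benjamini-Hochberg adjusted p = 0.0164) was the second smallest among the called receptors. The call did not hold after median-ratio scaling (limma adjusted p = 0.0552). Leaving out replicate 1 or 3 of WT gave an adjusted p of 0.0610 or 0.0588 in limma, and leaving out replicate 2 or 3 of Hemgn-/- gave 0.0583 or 0.0856.

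Ccr6 (ENSMUSG00000040899), the Ccl20 receptor of B cells, T helper cells and some dendritic cells, was the lowest of the 9 in WT libraries. Its values were 3.10, 5.14 and 3.72 FPKM in WT and 6.16, 8.40 and 8.28 FPKM in Hemgn-/- libraries. The highest WT value came near the lowest Hemgn-/- value without reaching it. The log2 fold change was 0.80 (standard error 0.18, limma with Benjamini-Hochberg adjusted p = 0.0343). Its call was lost on leaving out replicate 1 or 3 of WT (limma adjusted p = 0.0972 and 0.102) and replicate 2 or 3 of Hemgn-/- (0.112 and 0.130). Ccr6 fragments did not come out whole with the exon length used here, so none are given.

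Cxcr3 and Cx3cr1 did not pass the test. Cxcr3 (ENSMUSG00000050232), the receptor for the interferon-induced ligands Cxcl9 and Cxcl10 on T and NK cells, was at 8.74, 8.76 and 8.27 FPKM in WT and at 8.53, 8.72 and 9.40 FPKM in Hemgn-/- libraries, from 358 to 470 fragments each. The groups overlapped. The difference was 0.042 on the log2 scale (95% interval -0.18 to 0.26, limma with Benjamini-Hochberg adjusted p = 0.838), an interval that leaves out a 1.5-fold change in either direction. Its sign turned after median-ratio scaling (-0.051) and after quantile normalization (-0.036).

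Cx3cr1 (ENSMUSG00000052336), the fractalkine receptor of patrolling monocytes and macrophages, was at 4.41, 9.97 and 5.13 FPKM in WT and at 6.77, 6.16 and 9.09 FPKM in Hemgn-/- libraries. WT replicate 2 was the highest of all 6, and the groups overlapped. The difference was 0.21 on the log2 scale (95% interval -0.38 to 0.79, limma with Benjamini-Hochberg adjusted p = 0.680), an interval that holds both no change and a rise of 1.5-fold. It was 0.52 with an adjusted p of 0.143 from limma without WT replicate 2. In the annotation this gene spans several others, and 1.73% of its exon bases are shared with exons of Gm33858.

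**Figure D3:**
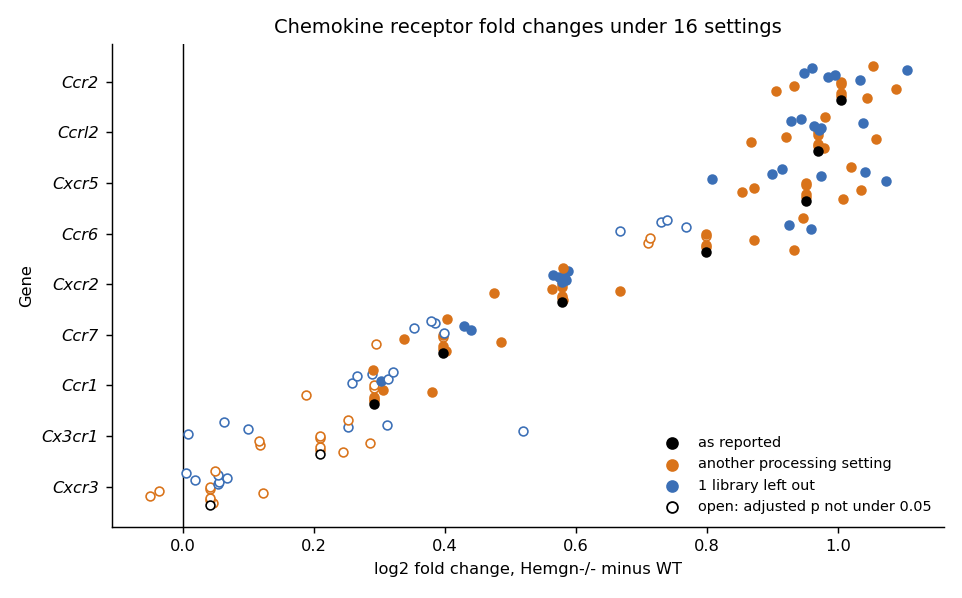
Log2 fold change of each receptor (Hemgn-/- minus WT) as reported in black, under 9 other processing settings in orange and with each of 6 libraries left out in blue. Filled points have an adjusted p under 0.05, which held at all 16 points for Ccr2, Ccrl2, Cxcr5 and Cxcr2 and at none for Cxcr3 and Cx3cr1.

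Ccr2, Ccrl2, Cxcr2 and Cxcr5 kept an adjusted p under 0.05 under all 15 alternatives, and the other called receptors, Ccr1, Ccr6 and Ccr7, lost it under some. Over these alternatives the log2 fold change ran from 0.90 to 1.10 for Ccr2, from 0.87 to 1.06 for Ccrl2, from 0.48 to 0.67 for Cxcr2 and from 0.81 to 1.07 for Cxcr5. The number of the 9 receptors that rose was 4 in the settings with the fewest calls and 7 in those with the most.

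Promoter sequences from RefSeq on build GRCm38.p6 were matched for 7 of the 9 receptors, as 10 windows of 250 bases ending before an annotated start. The study addressed interferon-gamma signaling, so the windows were searched on both strands for the interferon-gamma activation motif GAS (TTCNNNGAA) and for the ISRE core, and also for the core of PU.1, a myeloid and B cell factor (GAGGAA), and the NF-kB consensus. A GAS match occurred in 1 of the 10 windows, that of Ccr6, against 7.02% of all 32851 promoters. An ISRE core occurred in 0 of the 10, against 2.98% of all promoters. PU.1 cores were found in 4 of 10 windows (Ccr1, Ccr6, Cxcr2 and Cxcr3), against 23.3%, and NF-kB matches in 2 (Ccrl2 and the second start of Ccr6), against 3.90%. Cxcr3 held a PU.1 core although it did not pass the test. These windows are shown because they hold the matches in a receptor that held its call throughout (Ccrl2), in the only one with GAS matches (Ccr6) and in the most abundant of the 5 receptors on chromosome 9 (Ccr1). Capitals mark the motif matches, and sequences read 5′ to 3′ on the gene's strand.
Ccrl2, chr9:111057519-111057768, minus strand, NF-kB match: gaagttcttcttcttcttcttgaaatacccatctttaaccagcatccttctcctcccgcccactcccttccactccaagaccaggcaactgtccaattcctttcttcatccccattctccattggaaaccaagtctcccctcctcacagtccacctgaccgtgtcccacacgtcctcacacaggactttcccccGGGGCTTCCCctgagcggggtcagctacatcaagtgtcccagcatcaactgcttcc
Ccr6, chr17:8235793-8236042, plus strand, 1 PU.1 core and 2 GAS matches: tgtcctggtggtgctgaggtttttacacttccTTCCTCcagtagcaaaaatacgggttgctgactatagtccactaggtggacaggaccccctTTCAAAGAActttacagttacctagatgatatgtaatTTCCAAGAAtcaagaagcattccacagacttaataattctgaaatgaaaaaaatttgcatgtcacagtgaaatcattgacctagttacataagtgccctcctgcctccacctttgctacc
Ccr1, chr9:123968693-123968942, minus strand, PU.1 core: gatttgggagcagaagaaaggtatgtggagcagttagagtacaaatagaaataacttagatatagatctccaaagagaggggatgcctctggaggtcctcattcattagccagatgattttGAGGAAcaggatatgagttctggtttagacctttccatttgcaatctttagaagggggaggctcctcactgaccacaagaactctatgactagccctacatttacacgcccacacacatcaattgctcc
The GAS matches of Ccr6 begin 157 and 120 bases before its first annotated start, the NF-kB match of Ccrl2 begins 56 bases before its start, and the PU.1 core of Ccr1 begins 129 bases before its start. A match describes letters only.

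Of the 9 receptors, 5 lie on chromosome 9, and Ccr1 and Ccr2 belong to a receptor cluster there. On build GRCm38 (GENCODE M21), Ccr1 spans 123962124 to 123968692 on the minus strand and Ccr2 spans 124101950 to 124113557 on the plus strand, with Ccr1l1 and Ccr3 between them. Ccr3, the eotaxin receptor of eosinophils, averaged 1.95 ± 0.295 FPKM across the WT and 2.72 ± 0.229 FPKM across the Hemgn-/- libraries (SD, n = 3 each) and did not pass (limma with Benjamini-Hochberg adjusted p = 0.235). Elsewhere in the cluster, Cxcr6 (adjusted p = 0.649) and Ccr9 (adjusted p = 0.349), tested in the same limma fit, did not pass either, and Xcr1 and Ccr1l1 stayed below 1 FPKM in every library.

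Among 15 other chemokine receptor genes, 9 were tested. Of these, 1 rose and 0 fell with an adjusted p under 0.05 in limma, where 4.37% and 2.09% of all genes did. At an unadjusted p under 0.05, 1 of these 9 rose and 2 fell, with no share of all genes counted at that level. With voom, 0 fell with an adjusted p under 0.05. The median log2 fold change of the 9 tested was 0.23, beside 0.087 for all genes tested. The lower values at an unadjusted p under 0.05 belonged to Ccr8, a receptor of regulatory T cells (1.88 ± 0.490 against 0.774 ± 0.404 FPKM in WT and Hemgn-/-), and to Ackr1, an erythroid chemokine scavenger (4.23 ± 1.06 against 2.44 ± 0.479 FPKM), with limma adjusted p-values of 0.112 and 0.103. Cxcr4 was at 25.6, 14.7 and 19.7 FPKM in WT and at 23.6, 21.1 and 24.5 FPKM in Hemgn-/- libraries, with overlapping groups (log2 fold change 0.23, 95% interval -0.17 to 0.62, limma with Benjamini-Hochberg adjusted p = 0.50).

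Several ligands of these receptors were expressed in the same libraries. Of 23 ligand genes listed, 21 were in the table and 14 were tested. Of these 14, 6 rose and 0 fell with an adjusted p under 0.05 in limma, where 4.37% and 2.09% of all genes did. None fell at an unadjusted p under 0.05 in limma, and 0 fell with voom. The median log2 fold change of the 14 was 0.39. Cxcl10, a Cxcr3 ligand induced by interferons, was at 5.42, 7.51 and 6.65 FPKM in WT and at 15.4, 20.2 and 17.9 FPKM in Hemgn-/- libraries (log2 fold change 1.32, limma with Benjamini-Hochberg adjusted p = 0.00158). Cxcl9, which binds the same receptor, was at 1.05, 1.15 and 1.52 FPKM in WT and at 2.98, 5.90 and 3.52 FPKM in Hemgn-/- libraries (log2 fold change 1.16, limma with Benjamini-Hochberg adjusted p = 0.0176). The Cxcl9 call was lost with no filter on low values (limma adjusted p = 0.0768) and without WT replicate 1 or Hemgn-/- replicate 3 (0.0604 and 0.0554). For this pair the ligands rose while the receptor did not pass.

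Ccl2, a Ccr2 ligand, rose as did its receptor, from 9.50, 11.5 and 15.8 FPKM in WT to 22.2, 27.6 and 26.8 FPKM in Hemgn-/- libraries (log2 fold change 1.02, limma with Benjamini-Hochberg adjusted p = 0.0102). The Ccl2 call was lost with no filter on low values (limma adjusted p = 0.0516) and without Hemgn-/- replicate 3 (0.0518). Cxcl2, which acts on Cxcr2, was at 374, 422 and 341 FPKM in WT and at 450, 571 and 517 FPKM in Hemgn-/- libraries (log2 fold change 0.43, limma with Benjamini-Hochberg adjusted p = 0.0454). In both receptor and ligand, every Hemgn-/- library lay above every WT library, but the Cxcl2 call was lost in 7 of 15 alternatives, among them median-ratio scaling (limma adjusted p = 0.115) and leaving out replicate 1 or 3 of WT (0.118 and 0.131) or replicate 2 or 3 of Hemgn-/- (0.124 and 0.149). The Ccr1 ligands Ccl6 and Ccl9 rose by 0.49 and 0.40 on the log2 scale, from means of 462 and 34.1 to 649 and 45.3 FPKM (limma with Benjamini-Hochberg adjusted p = 0.00496 and 0.0412). The Ccl6 call was lost with no trend (limma adjusted p = 0.0650). The Ccl9 call was lost in 10 of 15 alternatives, including median-ratio and quantile scaling (limma adjusted p = 0.125 and 0.0906), the replicate block (0.0596) and every library left out except Hemgn-/- replicate 3 (0.0816 to 0.118). Ccl3 (322 ± 9.44 against 379 ± 21.8 FPKM) and Ccl4 (44.0 ± 0.270 against 53.8 ± 5.07 FPKM) were higher in each Hemgn-/- library without passing (limma adjusted p = 0.0660 and 0.0929). Among other listed ligands, Ccl5 (32.6 against 37.2 FPKM), Ccl7 (1.26 against 1.09 FPKM) and Ccl12 (0.576 against 0.853 FPKM) overlapped between the groups. They did not pass (limma adjusted p = 0.553, 0.751 and 0.586). The Ccr7 ligands Ccl19 and Ccl21a, the Cxcr5 ligand Cxcl13 and the Cx3cr1 ligand Cx3cl1 stayed at or below 1 FPKM in all libraries.

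**Figure D4:**
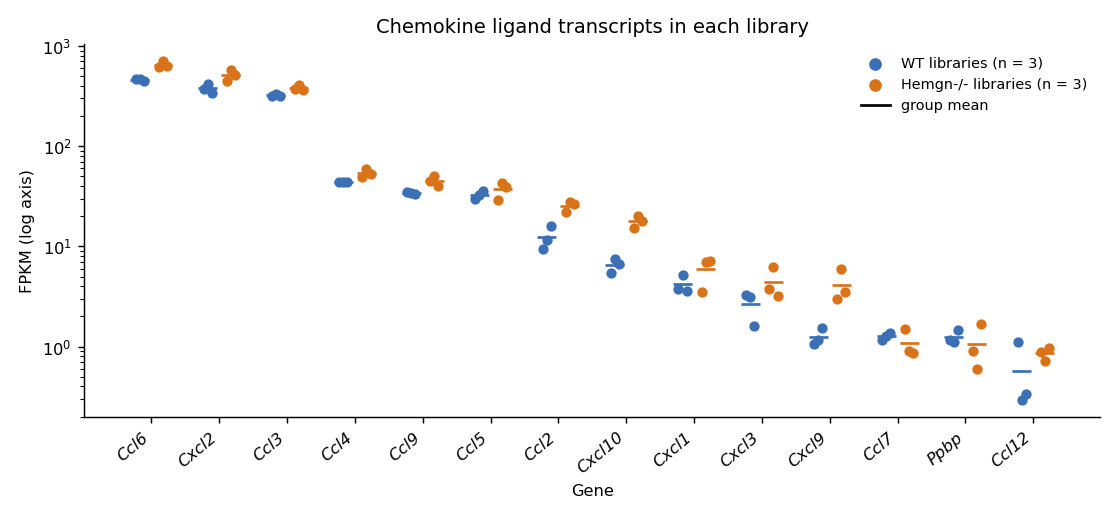
FPKM of the 14 ligand genes tested, in each library on a log axis, with WT libraries in blue, Hemgn-/- libraries in orange and lines for group means (n = 3 each). Ccl6, Cxcl2 and Ccl3 lie above 300 FPKM in every library, and Cxcl10, Cxcl9 and Ccl2 show the widest gaps between the groups.

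Of 27 genes that carry the signal of these receptors, all tested, 2 rose and 1 fell with an adjusted p under 0.05, where 4.37% and 2.09% of all genes did. At an unadjusted p under 0.05 in limma, 3 of the 27 rose and 6 fell, with no share of all genes counted at that level. The median log2 fold change of the 27 was -0.034. Rgs1, which shortens G protein signaling, was at 28.2, 30.2 and 29.1 FPKM in WT and at 40.6, 38.7 and 40.4 FPKM in Hemgn-/- libraries (log2 fold change 0.44, limma with Benjamini-Hochberg adjusted p = 0.0112). Dock2, which activates Rac in migrating leukocytes, rose from 39.5 ± 0.608 to 49.3 ± 3.02 FPKM (log2 fold change 0.31, limma with Benjamini-Hochberg adjusted p = 0.0484). The Rgs1 call was lost with no trend (limma adjusted p = 0.0647) and without WT replicate 1 or Hemgn-/- replicate 3 (0.0524 and 0.0631). That of Dock2 was lost in 11 of 15 alternatives, including median-ratio and quantile scaling (limma adjusted p = 0.174 and 0.150), the replicate block (0.0892) and each library left out (0.0560 to 0.170). Gnb1, a G protein beta subunit, fell from 52.0 ± 1.78 to 33.8 ± 2.17 FPKM (log2 fold change -0.61, limma with Benjamini-Hochberg adjusted p = 0.00364). The remaining 24 did not pass, among them Gnai2 and Gnai3, the inhibitory alpha subunits, at 24.8 and 126 FPKM in WT and 21.4 and 133 FPKM in Hemgn-/- libraries. Rac1, which the study's discussion lists among genes decreased by Hemgn loss, was also among these 24. It was at 23.2, 50.1 and 27.2 FPKM in WT and at 21.6, 18.4 and 15.4 FPKM in Hemgn-/- libraries, without overlap. Its log2 fold change was -0.76 (limma unadjusted p = 0.0160, Benjamini-Hochberg adjusted p = 0.127).

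Markers of the cell types that use these receptors moved as well. Unless stated otherwise, markers of each list below were counted at an adjusted p under 0.05 in limma. At that level 4.37% of all genes rose and 2.09% fell. Marker counts were not recomputed under the alternatives. Of 12 neutrophil markers, 1 rose (Csf3r, the G-CSF receptor, from 181 ± 11.8 to 235 ± 7.23 FPKM) and 5 fell, the granule genes Camp, Ltf, Ngp, Elane and Mpo, and the summed list was at 76659.8 to 82656 FPKM in WT and 50992 to 56447 FPKM in Hemgn-/- libraries. Cxcr2 per 1000 FPKM of that sum was 3.33 to 3.65 in WT and 7.30 to 8.30 in Hemgn-/- libraries, and Ccr1 was 3.34 to 3.62 and 5.95 to 6.79. Ngp alone, at 43176 to 46692 FPKM in WT and 26488 to 27961 FPKM in Hemgn-/- libraries, made up the largest part of these sums in every library, so the ratios depend mainly on that gene. Mmp8, Mmp9 and Retnlg, genes of mature neutrophils, did not pass, with log2 fold changes of 0.0065, 0.076 and 0.10. Only they and Csf3r, 4 of the 12, had a positive log2 fold change. S100a8, S100a9 and Prtn3 had negative ones without passing, and 7 of the 12 fell at an unadjusted p under 0.05 in limma.

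Of 12 monocyte and macrophage markers 4 rose (Csf1r, Adgre1, F13a1 and Ms4a6c) and 1 fell (Lyz2, which neutrophils also express and which makes up most of the sum of 23194.5 to 25893 FPKM in WT and 16781 to 20903.5 FPKM in Hemgn-/- libraries). Ccr2 per 1000 FPKM of this sum was 0.599 to 0.707 in WT and 1.35 to 2.06 in Hemgn-/- libraries. F13a1, a gene of classical monocytes, rose from 12.0 ± 0.473 to 23.6 ± 2.51 FPKM, about as far as Ccr2. The part of monocyte content in the Ccr2 result was not tested.

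Of 10 B cell markers 5 rose (among them Cd79b, Ms4a1, Cd22 and Blk) and 0 fell, where 4.37% and 2.09% of all genes did. The sum of these markers went from 1354 to 1405 FPKM in WT up to 1586 to 1756 FPKM in Hemgn-/- libraries. None of these markers fell at an unadjusted p under 0.05 in limma. Per 1000 FPKM of this sum, Cxcr5 was 6.58 to 9.53 in WT and 11.3 to 15.3 in Hemgn-/- libraries and Ccr6 was 2.21 to 3.77 and 3.89 to 5.01, in both cases without overlap. Ccr7 per 1000 FPKM of the same sum was 48.0 to 53.9 in WT and 53.0 to 56.8 in Hemgn-/- libraries, and these ranges overlapped.

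T and NK cell markers (3 of 13 tested rose, 0 fell) summed to 304 to 314 FPKM in WT and 352 to 388 FPKM in Hemgn-/- libraries, and plasmacytoid dendritic cell markers (4 of 9 rose, 0 fell) to 349 to 353 and 453 to 525 FPKM. Neither list had a marker that fell at an unadjusted p under 0.05 in limma. Cxcr3 per 1000 FPKM of the T and NK cell list was lower in each Hemgn-/- library (22.5 to 24.9) than in each WT library (26.3 to 28.7). Conventional dendritic cell markers were low, at 15.1 to 18.1 FPKM summed in WT and 25.3 to 27.6 FPKM in Hemgn-/- libraries, with 1 of 6 tested that rose (Ciita) and 0 that fell (0 also at an unadjusted p under 0.05 in limma). Among erythroid markers 3 of 7 tested fell and among basophil, mast cell and eosinophil markers 2 of 8, while 0 rose in either list after adjustment in limma (0 and 3 at an unadjusted p below 0.05). Erythroid markers summed to 457 to 542 FPKM in WT and to 32.0 to 51.9 FPKM in Hemgn-/- libraries. Basophil, mast cell and eosinophil markers summed to 1007 to 1144 FPKM in WT and to 863 to 891 FPKM in Hemgn-/- libraries. Both sums were lower in Hemgn-/- without overlap. The genes listed as HSPC markers summed to 131 to 137 FPKM in WT and 165 to 169 FPKM in Hemgn-/- libraries, with 3 of 11 tested that rose (Cd34, Cd48 and Ptprc). Ptprc encodes CD45, by which the study also tracked donor cells in blood, so it is not particular to HSPCs. Kit and Ly6a, the genes of the sort markers, were not among those that rose. No marker was at 0 in all 6 libraries. The part of these cell types in the receptor values was not tested.

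**Figure D5:**
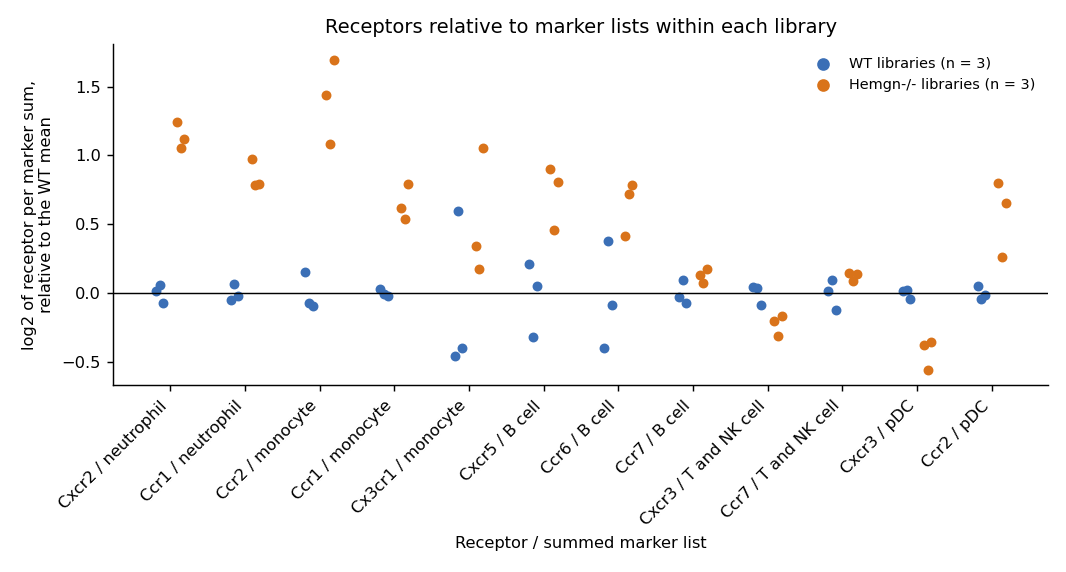
Each receptor's FPKM divided by the summed FPKM of a marker list in the same library, as log2 relative to the WT mean, with WT libraries in blue and Hemgn-/- libraries in orange (n = 3 each). Cxcr2 and Ccr1 over neutrophil markers, Ccr2 over monocyte markers and Cxcr5 and Ccr6 over B cell markers lie higher in Hemgn-/- libraries, Ccr7 overlaps, and Cxcr3 lies lower.

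For the 3 most abundant receptors, the genes with the most similar pattern over the 6 libraries were sought by Pearson's r of log2(FPKM + 1) among 9889 named genes. The closest to Cxcr2 were Nat10, Rnu6 and Btk (r = 0.999 each), those closest to Ccr1 were Ifi47, Ifi209 and Brox (0.991 to 0.994), and those closest to Ccrl2 were H2-T23, Cnpy3 and Irf8 (0.997 to 0.998). These r values describe 6 points that fall into 2 groups, and carry no test. Rnu6 was listed at 0 in all 3 WT libraries.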

How the data were processed

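Per the labels and the study's methods, total RNA of sorted donor cells was made into Smart-Seq2 cDNA and sequenced as paired-end Illumina reads, while the labels also name a TruSeq kit. The authors deposited 1 table of FPKM values, 1 column per library. The submitters' processing notes name Bowtie2 2.2.3, HISAT2 2.1.0, TopHat2 and HTSeq 0.6.0 and build GRCm38. The annotation is not given in the sources used here. Columns with no sample numbered 0. Columns were matched to samples by the genotype letter and the number in the sample title. Of 24965 genes, 24921 matched GENCODE M21 by Ensembl identifier.

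Values were taken as log2(FPKM + 1), filtered at FPKM above 1 in at least 1 library, and tested two-sided by limma (version 3.58.1, under R 4.3.3) with a trended eBayes step and no covariate, with Benjamini-Hochberg adjustment over 13739 genes. An exact permutation test of 3 against 3 libraries was not used because it cannot pass 0.05. Fragments were recovered as FPKM times exon length times depth. Of 13474 genes with at most 100 fragments, 95.7% came out whole within 0.05 in all libraries. Intervals and fragment counts cover these amplified libraries only. The script was tested on simulated data.

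The 9 receptors, the other lists and the rule for named genes were chosen with earlier results of these data known. Named were the 9 receptors, Hemgn, Cxcr4, up to 6 genes per pathway list with an adjusted p under 0.05 and the 3 genes most like each of the 3 most abundant receptors. Some genes that this rule covers are not reported here. Other genes were named after their values were seen, including Ccr3, Ccr8, Ackr1, Ccl3, Ccl4, Ccl5, Ccl7, Ccl12, Rac1, the ligands at low level and the markers. The ratios to marker sums, the motifs and the neighbours on chromosome 9 were also chosen then. Alternatives were a pseudocount of 0.1, no filter, a mean FPKM of at least 1, median-ratio scaling, the same FPKM total, quantile normalization, no trend, a replicate block and leaving out each library. Limma's voom on recovered fragments was added after seeing the data. Motifs were searched in Python 3.11.15 and plots drawn with matplotlib 3.10.9.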

Additional observations from a re-analysis of the deposited data

How the results depend on the processing

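Counts for all genes, the receptors, the ligands and the signaling genes were recomputed under 15 alternatives. So were fold changes of the 9 receptors, Hemgn, Cxcr4 and the called ligand and signaling genes. Marker counts were not. Among all genes, 600 rose and 287 fell, and the numbers were 309 and 157 with no filter on low values, 341 and 386 after median-ratio scaling, 1062 and 238 at the same FPKM total, 368 and 346 after quantile normalization, 237 and 153 with no trend, and 223 to 451 and 150 to 237 with 1 library left out. The share of calls that were higher thus depended on scaling. Over all genes the log2 fold change had a median of 0.087 as deposited and 0.0068 after median-ratio scaling, 0.16 at the same FPKM total and 0.012 after quantile normalization. Of the 9 receptors, 7 rose, or 4 after median-ratio scaling or with no trend and 4 to 7 with 1 library left out (4 without WT replicate 1, WT replicate 3, Hemgn-/- replicate 2 or Hemgn-/- replicate 3).

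Ccr1 lost its call with no filter, no trend and the replicate block (0.29 each) and after median-ratio scaling (0.19), with 0.26 to 0.32 when 1 library was left out. Ccr6 lost it with no filter and no trend (0.80 each) and after median-ratio or quantile scaling (0.71 each), with 0.67 to 0.96. Ccr7 lost it after median-ratio scaling (0.29) and with no trend (0.40), with 0.35 to 0.44. Cxcr3 changed sign after median-ratio (-0.051) and quantile (-0.036) scaling. Hemgn lost its call with no filter (-1.37) and without WT replicate 3 (limma adjusted p = 0.0503), with -1.58 to -1.20. The cause was not tested.

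Among other receptors, 0 rose with no filter, median-ratio or quantile scaling, no trend or the replicate block, and 0 to 1 with 1 library left out. Of the ligands, 2 rose with no filter, 3 with no trend and 3 to 5 with 1 library left out. Of the signaling genes, 1 rose with no filter, median-ratio or quantile scaling or the replicate block, 0 with no trend and 0 to 1 with 1 library left out, and 2 fell after median-ratio scaling.

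Deviations from the group means of same-numbered libraries correlated at -0.064, -0.014 and 0.0072, so no strong shared effect of the replicate number was seen. Such values cannot show whether same-numbered libraries were paired in handling. With the replicate block 410 genes rose and 226 fell. The voom fit, added after seeing the data, gave 734 and 331 genes and the same number of receptors that rose, 7. Cxcr3 rests on 358 to 470 fragments per library, and the called ligand Cxcl9 on 75 to 466. Called Ccr6, whose fragments did not come out whole, was below Cxcr3 in FPKM in each library.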
